A study of Mus musculus with 9 samples.

Results

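The histone genes of the mouse, both the clustered genes that are read during DNA replication and the variant genes outside the clusters, were examined in RNA-seq counts from 2-cell embryos. Members were the genes whose symbols start with Hist1h, Hist2h, Hist3h, Hist4h or H2af, together with H3f3a, H3f3b, H1f0, H1fx and H1foo. This took 84 of the 24454 genes in the table. Rows with the same count in every library were counted once, which left 81 distinct profiles, 66 clustered and 15 variant. Rows were called clustered by symbol and lie on 4 chromosomes. There were 55 Hist1 rows on chromosome 13, 10 Hist2 rows on chromosome 3, 3 Hist3 rows on chromosome 11 and 1 Hist4 row on chromosome 6. Among them Hist1h2al (chr13:51202727-51203065) and Hist3h2bb-ps are annotated as processed pseudogenes, and Hist1h2al lies apart from the other Hist1 rows.

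The study measured RNA in 9 libraries of ICR mouse embryos at the 2-cell stage, with 3 embryos pooled for each. There were 3 libraries of each of 3 kinds: control embryos, embryos loaded with high glucose (the glucose group), and embryos given both high glucose and rat serum that carried the drug named ZGW (the serum group). The labels name no genotype beyond the ICR strain, and leave unsaid if serum without drug was added to the control and glucose groups. They name no matings or days, so a p-value here weighs only the spread between pools of embryos.

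Clustered histone genes encode the core histones H2A, H2B, H3 and H4 and the linker histone H1 that are made while DNA is copied. Their messenger RNAs are unusual in that they normally end in a conserved stem-loop in place of a poly(A) tail, and stem-loop binding protein (Slbp) holds that structure. Variant genes such as those for H2A.Z and H3.3 are read outside replication as well, carry ordinary poly(A) tails, and supply histones that are exchanged into chromatin at any time. The oocyte stores its own linker histone, H1foo, and large amounts of histone RNA that the early embryo inherits.

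The sequence that sets most clustered genes apart was found in the annotated transcripts (GENCODE M21, assembly GRCm38, which mm10 names). The search was for the stem arms GGCNCT and AGNGCC joined by the loop TTTN, with no letters between them, on the strand of each transcript. It occurred in 49 of 141767 transcripts (0.0346%), against 3 on the opposite strand. The 49 belonged to 47 of 55341 genes, of which 43 were members. It was present in 42 of 69 clustered rows and in 1 of 15 variant rows, H2afx. Of the 27 clustered rows without it, 15 had no annotated 3′ UTR to search and 12 had one. Every one of the 43 matches lay in the 3′ UTR. A core of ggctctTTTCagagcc was shared by 26 genes of the H1, H2A, H2B and H3 classes, and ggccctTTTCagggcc by 7 genes, all of them H4. The following examples cover the main forms and the genes described here, written 5′ to 3′ with the loop in capitals.
Hist1h2ag, chr13:22042478-22042503, minus strand: acaaaggctctTTTCagagccaccta
Hist1h2ao, chr13:21810893-21810918, plus strand: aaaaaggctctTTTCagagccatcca
Hist1h2bj, chr13:22043633-22043658, plus strand: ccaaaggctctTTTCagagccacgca
Hist1h2bk, chr13:22036295-22036320, plus strand: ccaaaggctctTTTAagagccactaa
Hist1h4d, chr13:23581945-23581970, plus strand: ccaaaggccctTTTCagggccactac
Hist1h4i, chr13:22040961-22040986, minus strand: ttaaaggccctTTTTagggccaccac
Hist2h4, chr3:96262934-96262959, minus strand: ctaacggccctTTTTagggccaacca
H2afx, chr9:44335235-44335260, plus strand: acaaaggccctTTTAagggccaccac
The annotated transcript stopped within 60 bases after the stem-loop in 20 clustered rows and ran further in 22.

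The counts can hold only part of this picture. Whether the libraries selected RNA with poly(A) tails is not given in the sources used here, so the levels of the clustered genes are levels in these libraries and need not be their levels in the embryo. Many clustered genes are also near copies of each other. In 60 of 69 clustered rows, over 10% of the 50-base stretches of the transcripts occurred in another gene as well (median 49.5%), against 5 of 15 variant rows (median 6.68%). How reads that match several genes were assigned is not given either, so values of single clustered genes are uncertain. All 19 clustered H2A rows overlap an annotated gene on the opposite strand, in 18 rows a short predicted miRNA gene. None of those genes has a row in the count table, and the strand setting of the counting is not given. In libraries of whole embryos, fewer cells and less RNA per cell cannot be told apart.

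Library totals ranged from 11934924 to 16916343 counts. Levels are given as CPM, each count relative to its library total scaled with TMM factors, and per kilobase of annotated exons where genes are compared with each other. Of 16964 genes with enough counts to be tested, 57 were members (44 clustered and 13 variant). The other 24 profiles had too few counts, from 0 to 151 in all 9 libraries together, and H2afb2 had none. Untested members were 7 of 18 H2B, 7 of 11 H3, 5 of 6 H1, 3 of 18 H2A and 2 of 10 H2A variant profiles, and every H4 member was tested. All 14 markers of the oocyte and 2-cell embryo were present, with summed levels of 51508 to 63068 CPM in control, 33722 to 49850 in the glucose group and 63934 to 95753 in the serum group. Markers of blood reached 249.7 to 369, 86.6 to 308 and 319 to 528 CPM in the same order, and those of sperm 13.8 to 25.1, 9.22 to 14.4 and 15.3 to 20.9 CPM.

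Histone counts in these libraries came almost wholly from the variant genes. H2afz, H3f3a, H3f3b and H1foo together held 94.0% of all counts on members, and variants made up 0.531% ± 0.097 (SD, n = 3) of library counts in control, 0.497% ± 0.060 in the glucose group and 0.420% ± 0.052 in the serum group. The clustered genes made up 0.0188% ± 0.0030, 0.0141% ± 0.0026 and 0.0194% ± 0.0102. These shares of unscaled library totals overlapped between groups. With totals scaled by TMM factors, the clustered shares still overlapped, but the variant share was lowest in the serum libraries. It was 0.435% to 0.633% in control, 0.456% to 0.593% in the glucose group and 0.385% to 0.419% in the serum group. This difference was not tested.

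**Figure D1:**
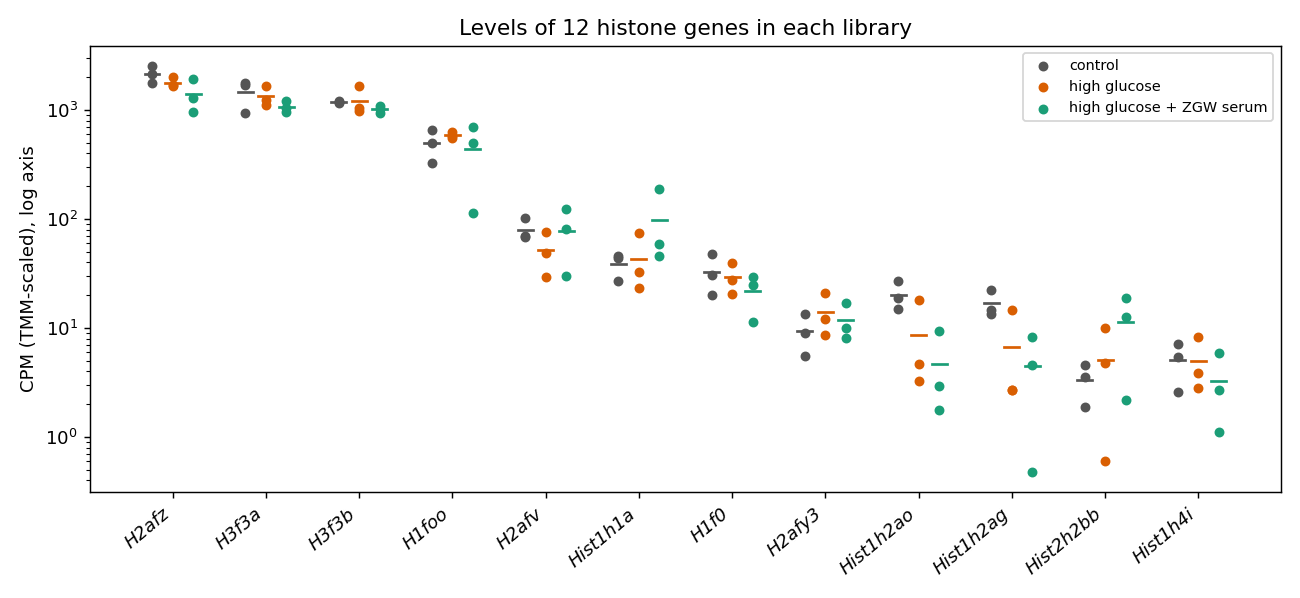
Level of 12 histone genes in each library (CPM on a log axis), with 3 points per group and a bar at the group mean. H2afz, H3f3a and H3f3b stand far above the clustered genes. H1foo exceeds them within each library, but its 113 CPM in serum replicate 2 is below the 189 CPM of Hist1h1a in serum replicate 3. The points of Hist1h2ao and Hist1h2ag lie lower in every serum library than in any control library.

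H2afz encodes H2A.Z, the H2A variant found at promoters and needed for early development (chr3:137864487-137866922, plus strand). It had the highest level of all members, at 998 CPM per kilobase over the 9 libraries, and ranked 62 by mean CPM among all genes. Its levels were 2524, 2125 and 1765 CPM in control, 1993, 1704 and 1661 CPM in the glucose group, and 1283, 1935 and 959 CPM in the serum group. Every glucose library except the first was below all controls, and serum replicate 2 lay among the controls. The log2 fold change was -0.26 ± 0.28 (SE) between the glucose group and control, -0.36 ± 0.28 between the serum and glucose groups and -0.62 ± 0.28 between the serum group and control (unadjusted p = 0.0486, adjusted p = 0.501 by edgeR). Of its 50-base stretches, 16.9% also occur in other genes.

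H2afv encodes the second form of H2A.Z and was far lower, at 42.7 CPM per kilobase. Its levels were 102, 69.8 and 68.8 CPM in control, 29.2, 76.8 and 49.0 in the glucose group, and 80.3, 122 and 29.9 in the serum group. The groups overlapped in each comparison, and both treated groups spanned a wider range than control.

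H3f3a and H3f3b encode the same H3.3 protein, which replaces H3 outside replication. Per kilobase they stood next to each other at 369 and 383 CPM, and H1foo at 421, with overlapping libraries, so the order of these 3 genes was not separated by the spread. H3f3a had 1769.6, 1715 and 940.4 CPM in control, 1647, 1239 and 1116 in the glucose group, and 968, 1038 and 1217 in the serum group. Control replicate 3 was below all other libraries, and 12.3% of the gene's stretches also occur elsewhere. H3f3b had 1199, 1164 and 1191 CPM in control, 1645, 986 and 1038 in the glucose group, and 1013, 934 and 1091 in the serum group. All 3 serum values were below all 3 controls, yet the log2 fold change was only -0.23 ± 0.24 (unadjusted p = 0.368, edgeR).

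H3.3 genes supplied nearly all H3 counts, at 99.7% ± 0.17 in control, 99.5% ± 0.39 in the glucose group and 99.6% ± 0.18 in the serum group. With counts divided by exonic length the shares were 98.5%, 97.8% and 98.2%. H2A variants likewise supplied 95.8% ± 1.44, 97.8% ± 1.54 and 97.7% ± 1.53 of H2A counts, or 86.6%, 92.8% and 92.0% per length.

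H1foo, the oocyte linker histone (chr6:115944938-115950236, plus strand), had 657, 498 and 328 CPM in control, 554, 576 and 626 in the glucose group, and 697, 113 and 500.04 in the serum group. Glucose libraries lay close together inside the control range, and serum replicate 2 was the lowest of all 9. Hist1h1a, a clustered linker gene with the highest level of all clustered members, had 43.5, 27.2 and 45.7 CPM in control, 73.7, 23.4 and 32.8 in the glucose group, and 45.4, 58.6 and 189 in the serum group. Its highest value by far was serum replicate 3, which held 35.1% of its summed CPM, and its log2 fold change against control was 1.33 ± 0.59 (unadjusted p = 0.0455, adjusted p = 0.496, edgeR). Without that library the log2 fold change was 0.45 (unadjusted p = 0.396, adjusted p = 0.859, edgeR). Hist1h1d, another clustered linker gene, lay between 0 and 3.78 CPM and had too few counts to be tested. H1foo made up 85.8% ± 5.19 of linker histone counts in control, 88.1% ± 5.19 in the glucose group and 72.5% ± 17.8 in the serum group, where single libraries ran from 56.6% to 91.7%.

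H1f0, a linker histone known from cells that have stopped dividing, had 47.3, 20.02 and 30.5 CPM in control, 39.9, 20.7 and 27.8 in the glucose group, and 11.3, 24.6 and 29.5 in the serum group. H1fx, another linker variant, stayed between 1.21 and 3.65 CPM in every library. Both overlapped between groups.

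Of the smaller H2A variants, H2afx encodes H2A.X, which is phosphorylated at DNA breaks, and lay between 1.96 and 7.80 CPM. H2afy2, which encodes a form of macroH2A, lay between 0.0755 and 2.99 CPM, and H2afb1, a testis type of short H2A, between 0.146 and 1.36 CPM. H2afy3, annotated as a processed pseudogene and overlapped by another gene on the opposite strand, had 5.51 to 21.1 CPM. In H2afj, an H2A gene outside the clusters, counts were 70, 78 and 161 in control, 37, 37 and 29 in the glucose group, and 66, 30 and 2 in the serum group. Its glucose libraries were all below its controls (log2 fold change -1.50 ± 1.01, unadjusted p = 0.165, edgeR).

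Clustered genes were low beside the variants. Their median level was 1.63 CPM per kilobase, from 0.110 to 81.0, against 3.27 in the variants, and 3 of 66 profiles averaged 10 CPM or more. Clustered genes with the stem-loop had a median of 1.36 CPM per kilobase (40 profiles). The 11 profiles with a 3′ UTR but no match stood at 2.97, and the 15 without an annotated 3′ UTR at 1.77. The ranges of these sets overlapped.

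High glucose was compared with control for the effect of glucose loading. Clustered H2A genes, most of which encode the H2A of newly made nucleosomes, were lower in the glucose group in all 15 tested profiles. This was set against 51.0% of all genes, and no gene passed the test. Of the 15, Hist1h2ab, Hist1h2ae, Hist1h2ai and Hist2h2ac met the filter on low counts only with the help of control libraries. They averaged higher there, so their direction supports no call. Hist1h2al, also among the 15, is annotated as a processed pseudogene. The summed level of clustered H2A was 95.02, 73.7 and 115 CPM in control and 22.5, 73.5 and 25.8 CPM in the glucose group. Glucose replicates 1 and 3 were far below all controls, and replicate 2 stood level with the lowest control. The median log2 fold change was -1.23 over H2A, -0.47 over 11 H2B, 0.03 over 13 H4 and 0.42 over 4 H3 profiles, and -0.02 over all genes tested. Over all 57 tested members the median was -0.22, and it was -0.91 without glucose replicate 2.

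**Figure D2:**
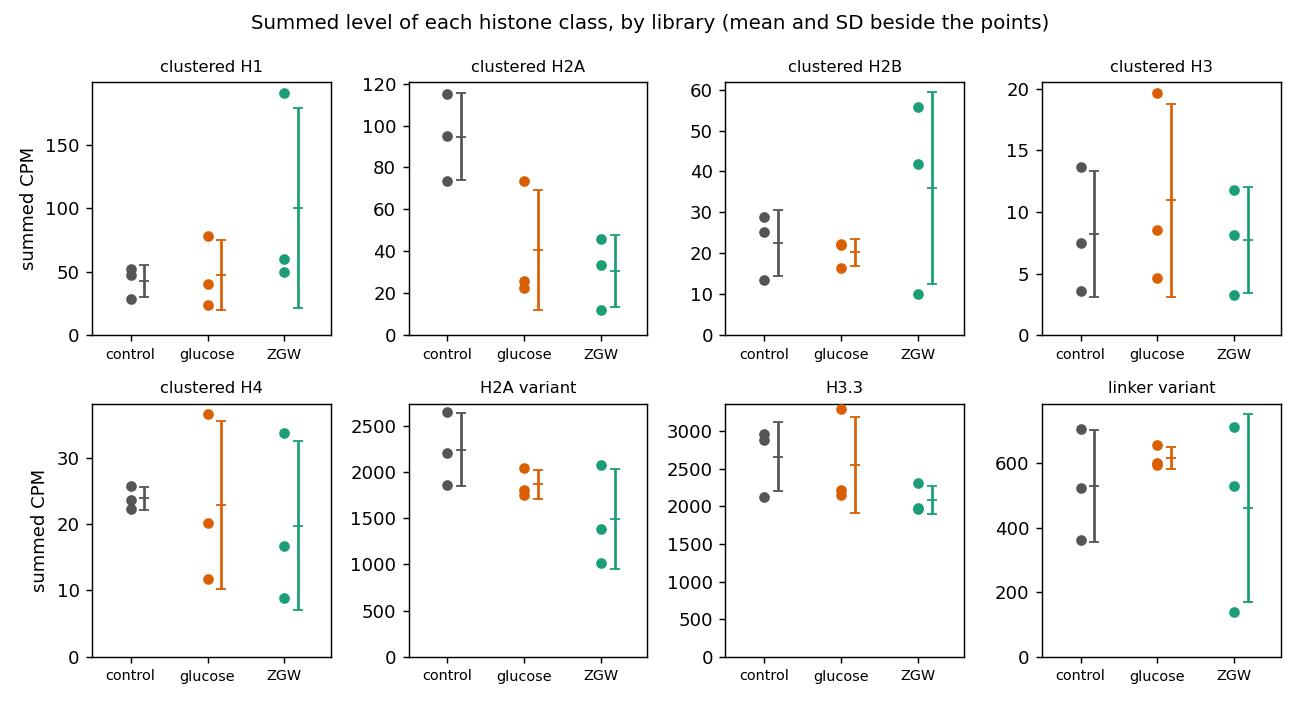
Summed CPM of the members of each histone class in each library, with the mean and SD beside the 3 points of a group. Clustered H2A stands at 73.7 to 115 in control and at 11.8 to 45.8 in the serum group, while clustered H2B and H4 overlap between the groups.

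By edgeR, 0 of 57 members passed an adjusted p of 0.05 in this comparison, and so did 0 of 16964 genes (0.0%). At an unadjusted p under 0.05 there were 3 members, H2afy and Hist2h4 higher and Hist1h2bb lower, against 3.88% of all genes higher and 3.5% lower. All 3 met the filter on low counts only with the help of groups where they are high, so this count supports no call. DESeq2 called 1 member, H2afy, and 122 genes (0.719%), while limma-voom called 0. Groups did not overlap in 13 members that were lower and 3 that were higher, against 6.91% and 6.84% of all genes. Of the 13, 8 were clustered H2A profiles, which share sequence and so are not independent measures. Among the 8, Hist1h2ai and Hist2h2ac met the filter on low counts only with the help of control libraries. Hist1h2al, also among them, is annotated as a processed pseudogene.

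The leading H2A gene by level was Hist1h2ao (chr13:21810465-21810944, plus strand), with 260, 202 and 368 counts in control and 43, 234 and 58 in the glucose group. The neighbouring row Hist1h2ap differed from it by 2 counts in 1 library, so the table barely separates them. Its log2 fold change was -1.23 ± 0.82 (adjusted p = 0.752 or more for every H2A gene, edgeR). Hist1h2ag (chr13:22042460-22042944, minus strand) had 202, 181 and 308 counts in control and 36, 189 and 33 in the glucose group. In both genes glucose replicate 2 stood level with the controls and the others were several-fold below.

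Summed levels of cumulus and granulosa markers, from the somatic cells around an oocyte, ran lower in the same groups as clustered H2A. In the serum group they overlapped control, which clustered H2A did not. The sum was 17.9 to 37.1 CPM in control, 9.20 to 17.7 in the glucose group and 10.5 to 18.4 in the serum group. None of the 12 was at 0 in all libraries, 4 were tested, and their part in the H2A result was not tested. Summed sperm markers also ran lower in the glucose group, at 9.22 to 14.4 CPM against 13.8 to 25.1 in control, but not in the serum group, at 15.3 to 20.9.

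Hist2h4, an H4 gene of the Hist2 cluster that shares only 1.01% of its stretches with other genes, was singled out after its values were seen. It had 1, 8 and 7 counts in control, 23, 24 and 26 in the glucose group, and 35, 32 and 19 in the serum group. Every library of both treated groups was above every control. Hist2h4 met the filter on low counts only through the treated groups, where it is high, so its p-values are a description and support no call. The log2 fold change was 2.25 ± 0.89 in the glucose group (unadjusted p = 0.0284, adjusted p = 0.649) and 2.35 ± 0.89 in the serum group against control (unadjusted p = 0.0232, adjusted p = 0.448), both by edgeR. Of the other H4 genes, Hist1h4i averaged 5.07 ± 2.30 CPM in control and 4.95 ± 2.88 in the glucose group, and Hist1h4c 1.27 ± 0.367 and 1.89 ± 1.43. Hist1h4d was lower in all 3 glucose libraries, at 2.49, 2.23 and 1.79 CPM against 5.32, 7.67 and 4.67 in control (log2 fold change -1.43 ± 0.86, unadjusted p = 0.124, edgeR).

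Hist1h2bb, an H2B gene also named after its values were seen, had 3.71, 0.744 and 0.511 CPM in control and 0.453, 0.384 and 0.244 in the glucose group. The log2 fold change was -2.17 ± 0.97 (unadjusted p = 0.0482, adjusted p = 0.672, edgeR), and control replicate 1 held 39.3% of its summed CPM. Hist1h2bb met the filter on low counts only with the help of control libraries, where it is higher than in the glucose group. These p-values are therefore a description and support no call.

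**Figure D3:**
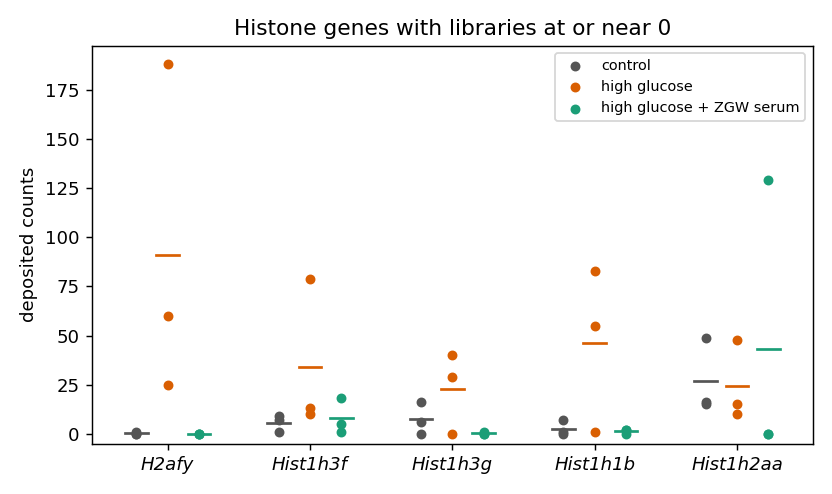
Deposited counts of 5 histone genes in each library, with a bar at the group mean. H2afy has 25, 60 and 188 counts in the glucose group and at most 1 elsewhere, and a single serum library carries Hist1h2aa.

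H2afy encodes macroH2A1, the large H2A variant linked to silent chromatin (chr13:56073619-56136361, minus strand). It had 0, 0 and 1 counts in control, 25, 60 and 188 in the glucose group, and 0, 0 and 0 in the serum group. All 3 glucose libraries stood above the other 6, but unevenly, and replicate 3 held 70.0% of the summed CPM. Over the groups the ratio of the glucose group to control was 292 (exact 95% interval 52.0 to 11584, counting error only), and against the serum group it was at least 95.4-fold higher, taking a floor of 3 counts over the group. It met the filter on low counts only through the glucose group, where it is high, so its p-values are given as a description and support no call. H2afy did not pass by edgeR (adjusted p = 0.579 against control and 0.370 between the serum and glucose groups). DESeq2 called it in both comparisons (adjusted p = 0.00381 and 0.00044), while the other alternatives gave 0.366 to 0.845 and 0.320 to 0.851. None of its stretches occurs in another gene, though an annotated gene on the opposite strand overlaps its exons.

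Uneven counts of this kind were seen in other low genes. Hist1h3g had 6, 0 and 16 counts in control, 0, 40 and 29 in the glucose group, and 1, 0 and 0 in the serum group, a ratio of 72.3 between the last 2 groups (exact 95% interval 12.6 to 2897, counting error only, which leaves out the spread between libraries). Hist1h1b had 55, 1 and 83 counts in the glucose group and at most 7 in any library of the other groups. Hist1h3g encodes an H3 and Hist1h1b a linker H1, and each had 1 glucose library with no more than 1 count. Hist1h3f had 10, 13 and 79 counts in the glucose group, 9, 1 and 7 in control and 5, 1 and 18 in the serum group. Hist1h2aa, a testis H2A gene, had 49, 16 and 15 counts in control, 48, 15 and 10 in the glucose group, and 0, 0 and 129 in the serum group. In each of these genes 1 or 2 libraries of 3 pooled embryos carried most of the counts.

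ZGW serum was compared with high glucose to see whether the drug serum moved genes under glucose loading. Clustered H2B genes were mostly higher in the serum group, with a median log2 fold change of 1.13 over 11 profiles, and clustered H2A genes mostly lower, with a median of -0.75 over 15. No member passed the test, and neither pattern held across all libraries. Summed H2B levels were 16.5, 22.0 and 22.2 CPM in the glucose group and 41.8, 10.1 and 55.8 in the serum group, so serum replicate 2 was the lowest of all while the other 2 were the highest. In H2A, 11 of 15 profiles were lower, against 49.9% of all genes, but only 7 of 15 without glucose replicate 2. The median over all members was -0.27, against 0.00 over all genes, and 0.10 without that replicate.

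In this comparison edgeR called 0 of 57 members and 0 of 16964 genes (0.0%), and limma-voom called 0. At an unadjusted p under 0.05 there were 2 members, H2afy and Hist1h3g, both lower, against 4.89% of all genes lower and 3.8% higher. Both met the filter on low counts only with the help of glucose libraries, where they are high, so this count supports no call. DESeq2 called H2afy and 241 genes (1.42%). Groups did not overlap in 2 members that were lower and 3 that were higher, against 8.28% and 9.08% of all genes, so both shares of members were below those of all genes.

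Hist2h2bb, the H2B gene of highest level, had 3.57, 4.62 and 1.90 CPM in control, 0.604, 4.76 and 10.01 in the glucose group, and 12.6, 2.18 and 19.0 in the serum group. Hist1h2bj had 1.89, 3.57 and 2.19 CPM in control, 2.04, 0.615 and 0.326 in the glucose group, and 2.99, 0.849 and 10.1 in the serum group. Both were high in serum replicates 1 and 3 and low in replicate 2. The log2 fold change of Hist1h2bj between the serum and glucose groups was 2.21 ± 1.09 (unadjusted p = 0.0676, edgeR). Hist2h3b, an H3 gene, had 2.27, 1.08 and 0.733 CPM in the glucose group and 0.551, 3.82 and 7.81 in the serum group, again a wide range that enclosed the other group. Hist1h2bc, an H2B gene, averaged 2.00 ± 1.80 CPM in control, 2.68 ± 0.703 in the glucose group and 2.62 ± 2.42 in the serum group. Hist2h3c1, an H3 gene all of whose stretches also occur in another gene, averaged 1.90 ± 0.945, 1.01 ± 0.458 and 1.68 ± 1.11 CPM. The libraries of both genes overlapped between groups.

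ZGW serum against control had the clearest separation of clustered H2A. Summed H2A levels of 45.8, 11.8 and 33.5 CPM in the serum group were all below the control levels of 95.02, 73.7 and 115 CPM. Of 15 tested H2A profiles 13 were lower, against 50% of all genes, and the exceptions were Hist1h2aa and Hist2h2ac. In each of those 13 all serum libraries were below all controls, which held in 7.32% of all genes. The H2A profiles share sequence and so are not independent measures, and Hist1h2ao and Hist1h2ap hold nearly the same counts. Hist1h2ab, Hist1h2ae and Hist1h2ai met the filter on low counts only with the help of their control libraries, where they are high. Of the 3 untested H2A profiles, Hist2h2ab was higher in every serum library (0.551, 1.43 and 0.710 CPM) than in any control (0.364, 0.372 and 0.438 CPM). Hist3h2a was lower without overlap, and Hist1h2ak overlapped. The median log2 fold change over H2A was -1.98, against 0.38 over H2B, -0.33 over H4 and 0.00 over all genes. Still, no H2A gene passed the test after adjustment over all genes.

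**Figure D4:**
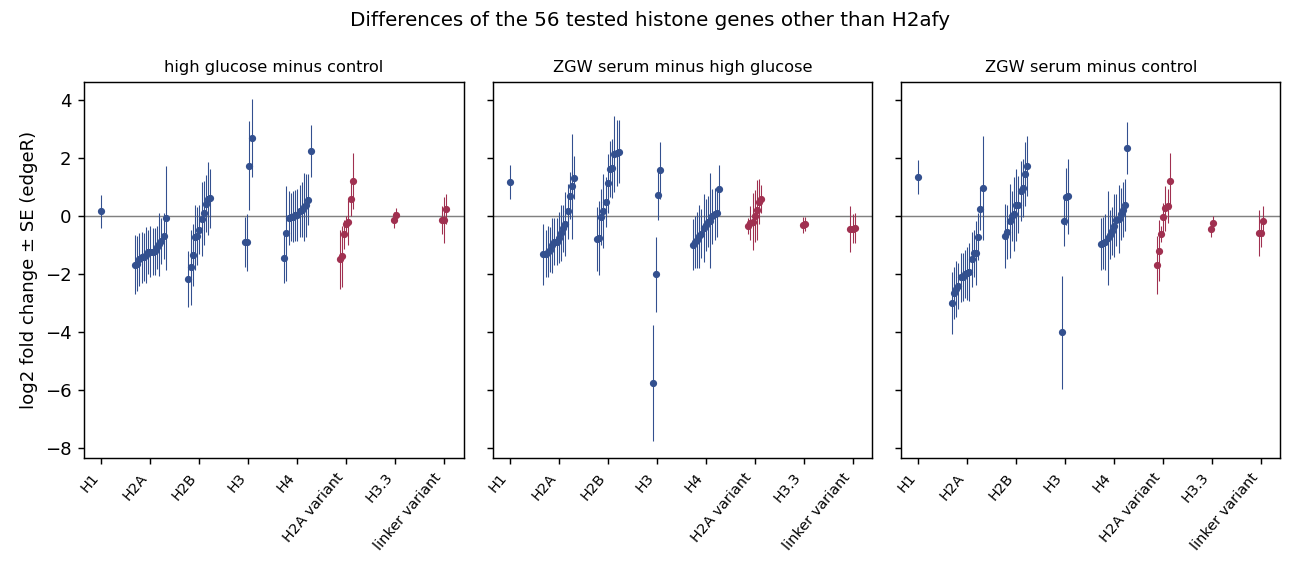
Log2 fold change with SE (edgeR) of each tested histone gene other than H2afy, by class, in the 3 comparisons, with clustered genes in blue and variants in red. Clustered H2A points lie below 0 in 15 of 15, 11 of 15 and 13 of 15 profiles, and H2B points on both sides.

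By edgeR, 0 of 57 members and 0 of 16964 genes (0.0%) passed in this comparison. At an unadjusted p under 0.05 there were 10 members, 8 lower and 2 higher, against 5.65% of all genes lower and 4.21% higher. The 8 were H2afz and 7 clustered H2A profiles, and the other 2 were Hist1h1a and Hist2h4. The 7 share sequence and so are not independent measures, and they include both Hist1h2ao and Hist1h2ap, which hold nearly the same counts. They also include Hist1h2ae and Hist1h2ai, which met the filter on low counts only with the help of control libraries. DESeq2 called 0 members and 333 genes (1.96%), and limma-voom called 0 members and 1 gene (0.00589%). Groups did not overlap in 15 members that were lower, against 7.32% of all genes, and in 1 that was higher, against 9.02%. Since the comparisons of the glucose and serum groups with control share the control libraries, the lower H2A values in both are not independent of each other.

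Hist1h2ai, which had the lowest p of the members in this comparison and was singled out for it, had 2.62, 1.56 and 1.82 CPM in control, 0.604, 0.845 and 1.06 in the glucose group, and 0.551, 0.371 and 0.177 in the serum group. The 3 groups did not overlap at all in this gene. It met the filter on low counts only with the help of its control libraries, where it is high. Its p-values are therefore a description and support no call. Its log2 fold change against control was -2.41 ± 0.79 (unadjusted p = 0.0112, adjusted p = 0.409, edgeR), and 90.1% of its stretches also occur in other genes. Hist1h2ao had 119, 33 and 33 counts in the serum group, below the 202 to 368 of control, with a log2 fold change of -2.11 ± 0.84 (unadjusted p = 0.0289, adjusted p = 0.461, edgeR). Hist1h2ag had 105, 9 and 52 counts, below the 181 to 308 of control (log2 fold change -1.92 ± 0.99, unadjusted p = 0.0794, edgeR). In both genes serum replicate 1 was the highest of its group.

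Most clustered H2A genes sit head to head with an H2B gene, and both are read from the same short stretch between them. In 13 such pairs the gap was 172 to 305 bases. The pairs were chosen after the values were seen, and 2 of them, Hist1h2ao with Hist1h2bq and Hist1h2ap with Hist1h2br, hold nearly the same counts. The ratio of H2A to H2B counts was lower in the glucose group than in control in 11 of 13 pairs, lower in the serum group than in the glucose group in 12, and lower in the serum group than in control in 13. These are ratios of counts summed over a group, and every lower value was counted, whatever its size: the 11 include Hist1h2ag with Hist1h2bj, at 6.62 against 6.64, and Hist3h2a with Hist3h2bb-ps, at 18 and 8 counts against 10 and 4. The 12 and the 13 include Hist3h2a with Hist3h2bb-ps, at 1 and 1 counts in the serum group. They also include Hist1h2aa with Hist1h2ba, where the serum H2A counts were 0, 0 and 129. In Hist1h2ag and Hist1h2bj, 269 bases apart, the counts were 691 and 104 in control, 258 and 39 in the glucose group, and 166 and 168 in the serum group. By library, Hist1h2bj had 26, 48 and 30 counts in control, 27, 8 and 4 in the glucose group, and 38, 16 and 114 in the serum group. Of the glucose libraries, only replicate 3 had both genes below all their controls. Replicate 1 was low only in Hist1h2ag and replicate 2 only in Hist1h2bj. In serum replicate 2 both genes were also below all their controls, at 9 and 16 counts. Differences between the genes of a pair were not tested.

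Over all clustered members, H2A counts were 3.29, 2.93 and 8.63 times the H2B counts in control, 1.37, 3.34 and 1.16 times in the glucose group, and 1.10, 1.17 and 0.601 times in the serum group. No serum library reached any control, and glucose replicate 2 stood within the control range. Control replicate 3 had both the highest H2A and the lowest H2B level of its group.

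**Figure D5:**
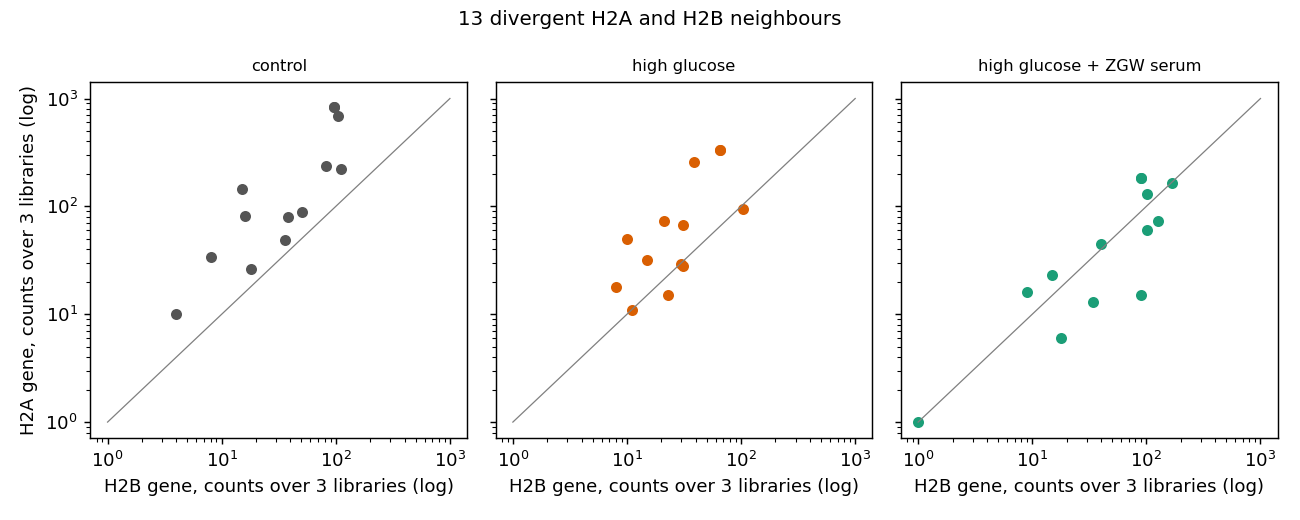
Counts of the H2A gene against those of its head-to-head H2B neighbour, summed over the 3 libraries of a group, for 13 pairs on log axes with a line of equal counts. All 13 points lie above the line in control, and points on both sides of it are seen in the serum group.

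The stretch in front of Hist1h2ag (RefSeq, GRCm38.p6, chr13:22042950-22043199, minus strand, 250 bases up to the annotated start) is shown because it also faces Hist1h2bj, with CCAAT boxes on either strand in capitals.
Hist1h2ag upstream: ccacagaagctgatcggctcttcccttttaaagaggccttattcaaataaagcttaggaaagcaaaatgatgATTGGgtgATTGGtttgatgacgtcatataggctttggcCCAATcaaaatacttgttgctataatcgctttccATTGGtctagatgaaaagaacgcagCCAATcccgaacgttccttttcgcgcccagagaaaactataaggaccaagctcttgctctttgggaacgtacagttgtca
It holds 5 CCAAT boxes and no TATAAA. The stretch in front of Hist1h2aa (chr13:23934187-23934436, plus strand), the testis gene with counts in only 1 serum library, is given for comparison.
Hist1h2aa upstream: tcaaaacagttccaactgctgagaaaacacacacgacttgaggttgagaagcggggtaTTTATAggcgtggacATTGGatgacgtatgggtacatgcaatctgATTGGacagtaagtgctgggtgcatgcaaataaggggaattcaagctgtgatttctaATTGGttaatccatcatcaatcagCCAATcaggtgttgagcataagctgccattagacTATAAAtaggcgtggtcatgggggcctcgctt
It holds 4 CCAAT boxes and TATAAA once on each strand. RefSeq gave such stretches for 73 of 84 rows. CCAAT, searched on both strands as CCAAT or ATTGG, was present in 51 of 62 clustered promoters (82.3%), 8 of 12 variant promoters (66.7%) and 33.8% of 32851 promoters of all genes. TATAAA, also on both strands, was present in 29 of 62 (46.8%), 1 of 12 (8.33%) and 12.4%. Head-to-head H2A and H2B neighbours share much of these windows, so the same boxes can be counted for both genes. The 62 are therefore not separate promoters. The matches describe the letters of these windows and say nothing of binding.

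Genes that process histone RNA were measured as a list of 20, of which 19 were in the table and all 19 were tested. By edgeR 0 passed in any of the comparisons. At an unadjusted p under 0.05, 3 of 19 were higher in the glucose group than in control and 0 lower, against 3.88% and 3.5% of all genes. Slbp, the stem-loop binding protein, averaged 212 ± 46.1 CPM in control, 426 ± 156 in the glucose group and 293 ± 127 in the serum group. Its log2 fold change was 1.00 ± 0.36 in the glucose group (unadjusted p = 0.0191, adjusted p = 0.627). Casp8ap2, which is needed for histone gene activity, averaged 125 ± 27.8, 221 ± 34.3 and 156 ± 10.7 CPM, with 0.83 ± 0.25 in the glucose group (unadjusted p = 0.0074, adjusted p = 0.627). Lsm11, part of the U7 particle that cuts histone RNA, averaged 1.94 ± 1.35, 7.58 ± 4.91 and 7.997 ± 3.44 CPM.

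Between the serum and glucose groups none of the 19 had an unadjusted p under 0.05. Between the serum group and control 1 was higher, Lsm11, and 3 were lower, against 4.21% and 5.65% of all genes. Upf1, a helicase of RNA decay that also acts on histone RNA, averaged 70.7 ± 35.8 CPM in control, 34.4 ± 11.6 in the glucose group and 15.3 ± 8.62 in the serum group, with a log2 fold change of -2.20 ± 0.55 against control (unadjusted p = 0.0021, adjusted p = 0.368, edgeR). Ncbp1, a cap binding protein, averaged 38.5 ± 9.63, 31.8 ± 4.85 and 18.4 ± 7.41 CPM, and Sympk, a scaffold of the cleavage complex, 3.32 ± 4.61, 2.30 ± 0.739 and 0.445 ± 0.434 CPM.

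Chaperones that carry and place histones were measured as a list of 36, all tested, with 0 passing by edgeR in any comparison. At an unadjusted p under 0.05, 2 of 36 were higher in the glucose group than in control, against 3.88% of all genes, and 4 were lower in the serum group than in the glucose group, against 4.89%. In the serum group 1 was higher and 2 were lower than in control, against 4.21% and 5.65%, so most of these counts were near those of all genes. Atrx, which places H3.3 in repeated DNA with Daxx, averaged 84.6 ± 30.4 CPM in control, 182 ± 34.0 in the glucose group and 86.4 ± 22.9 in the serum group. Its log2 fold change was 1.10 ± 0.34 in the glucose group (unadjusted p = 0.0076, adjusted p = 0.627) and -1.07 ± 0.34 between the serum and glucose groups (unadjusted p = 0.0089, adjusted p = 0.465), which share the glucose libraries. Set, a histone chaperone, averaged 678 ± 208, 519 ± 139 and 285 ± 111 CPM, and its log2 fold change between the serum group and control was -1.25 ± 0.37 (unadjusted p = 0.0062, adjusted p = 0.402, edgeR). Cenpa, the centromere form of H3 that the symbol rule leaves out, averaged 68.2 ± 14.7, 58.1 ± 2.07 and 50.02 ± 12.8 CPM.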

How the data were processed

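RNA was measured in 9 libraries, 3 per group, each from 3 pooled embryos. The authors deposited unnormalised whole-number counts for each gene symbol. Per the submitters' processing notes, Trim Galore and the build mm10 were used. Not given in the sources used here are the aligner, counter, annotation, strand setting, RNA selection and handling of multiply matching reads.

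The members, gene lists and tests were chosen with earlier results of these data known. Counts were tested with edgeR 4.0.16 (R 4.3.3): TMM factors, filter at a minimum count of 10, robust quasi-likelihood fit of all 9 libraries with 1 mean per group, Benjamini-Hochberg adjustment over 16964 genes and a threshold of 0.05. Spread between libraries was wide (common biological coefficient of variation 0.731). Counts were simulated for the glucose group against control over 16964 genes, with differences planted only where the level averaged 10 CPM or more. Recovery was 2.67% for 2-fold differences, 36.7% for 4-fold, 77.3% for 8-fold and 87.3% for 16-fold. Only 10 of 81 member profiles, and 3 of 66 clustered ones, reached that level. The rates therefore do not cover most members. Sums, shares and medians over members have no test.

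Named by rule were all tested variants, the 3 clustered members of highest mean CPM per class, up to 5 members of lowest p each way whose mean reached 10 CPM, and up to 4 genes of lowest p per related list. Positions, exons, transcripts and overlaps came from GENCODE M21, promoters from RefSeq. The pairs of H2A and H2B genes were searched with gaps of at most 500 bases. Alternatives were other scaling, DESeq2 1.42.0, limma-voom (limma 3.58.1), other filters, fits of the 2 groups compared, a replicate block, identical rows once, and libraries left out. The count of clustered H2A profiles below 0 under each alternative was added after the data were seen.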

Additional observations from a re-analysis of the deposited data

How the results depend on the processing

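Under 19 alternatives, the count of 0 members called by edgeR differed only with DESeq2, which called 1 (H2afy) between high glucose and control and 1 between ZGW serum and high glucose. Over all genes DESeq2 called 122, 241 and 333 in the 3 comparisons. Between ZGW serum and control 1 gene was called with library totals alone, limma-voom, no filter, a filter of 10 counts in 6 libraries, or identical rows kept once. The cause of these differences was not tested. Of 1450 alternative values for 77 gene results, 74 had the other sign than the main value, 13 of them with a shift larger than the SE of the main value, and 2 passed the threshold, both for H2afy with DESeq2. With each library left out in turn, the median log2 fold change of members under high glucose ranged from -0.91 to -0.14, H3f3b from -0.23 to 0.15 and Hist1h1a from -0.47 to 0.43. Between ZGW serum and high glucose, Hist1h2ag ranged from -1.39 to 0.71, Hist1h2ao and Hist1h2ap from -1.89 to 0.23 and Hist1h4d from -0.37 to 1.32. Between ZGW serum and control, Hist1h2bc ranged from -0.67 to 1.44, Hist1h2bj from -0.39 to 1.33 and Hist1h3f from -0.88 to 1.21. With both control replicate 1 and serum replicate 3 left out, H2afv stood at 0.57 and Hist1h2bj at -0.56 against control, and Hist1h4d at -0.37 against high glucose. By limma-voom Hist2h3b stood at -0.38 against control. Clustered H2A profiles below 0 between ZGW serum and high glucose numbered 7 of 15 without high glucose replicate 2. They numbered 6 in a fit of only those groups. There the filter on low counts was applied anew and fewer than 15 H2A profiles were tested, so the 6 cannot be read against 11 of 15. Per exonic length, H3.3 made up 98.5%, 97.8% and 98.2% of H3 and H2A variants 86.6%, 92.8% and 92.0% of H2A.

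Replicate numbers share no stated day or mating, and deviations of same-numbered libraries correlated from -0.01 to 0.10, so the numbers were not taken as pairs. With the replicate number as a block, 0 members were called in each comparison and the median log2 fold changes were -0.24, -0.27 and -0.40. The median SE of the log2 fold change under high glucose was 0.90 over the 57 tested members, clustered and variant, against 0.78 over all genes.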
